A study of Homo sapiens with 6 samples.

Results

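The genes described here encode the proteins of the cytosolic ribosome, in GFP-positive HEK293 cells that had been grown beside cells producing reactive oxygen species (ROS) and in control cells. They were chosen by symbol, as every gene named RPL or RPS followed by a number with at most a closing A or X, together with RPLP0, RPLP1, RPLP2 and RPSA, and with at least 10 reads in at least 3 of the 6 libraries. Of 23686 genes in the count files, 77 had such a symbol and 75 met the read minimum, 45 of the large subunit and 30 of the small subunit. All 75 reached that minimum in all 6 libraries, the lowest count being 27 reads of RPS27. The other two had 0 reads in every library, so nothing lay between 0 and 27 reads. A count of 0 allows up to 3 reads, or 0.0828 to 0.157 CPM (the read count scaled by library size) depending on the library, by counting error alone. The layout counts only reads with a single place in the genome, so 0 reads here do not show that a gene is silent.

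HEK293 is a long-established human embryonic kidney line. The co-culture group held 3 samples of cells that carried GFP (green fluorescent protein) and had grown for 10 h with HEK293 cells carrying DAAO, with D-alanine at 25 µM. DAAO commonly stands for D-amino acid oxidase, which makes hydrogen peroxide while it oxidises D-alanine and similar substrates. The control group, titled Wt in the labels, held 3 samples of cells that also carried GFP, and both groups were collected by sorting for GFP. All samples share 1 treatment text, so whether the controls received D-alanine or partner cells cannot be told apart. The promoter behind each transgene, and whether a line came from 1 clone, are not given in the sources used here. No label says that samples of a group came from separate cultures, so p-values measure the spread between these samples, which may be technical. All libraries were from bulk RNA, so fewer cells of a kind and less RNA per cell cannot be told apart.

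The cytosolic ribosome translates all messages of the nuclear genome. Its small subunit reads the message and its large subunit joins amino acids, and each holds ribosomal RNA and a set of proteins that mostly occur in a single copy. The messages of these proteins begin with a run of pyrimidines, the 5′ terminal oligopyrimidine (TOP) tract, through which mTOR signalling and the protein LARP1 adjust their translation together. Proliferating cell lines carry them among their most abundant messages. Most of the genes have processed pseudogenes, which are copies of the message inserted elsewhere in the genome. Reads that match such a copy as well as the gene are not counted for either.

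The transcription starts below are those of members described in the results, 6 with a TOP tract at the annotated start and 4 without. Each window holds 15 bases before and 15 bases from the annotated start, 5′ to 3′ on the gene's own strand, and capitals mark the run of C and T from the first transcribed base where it begins with C and goes on for at least 4 more pyrimidines. The sequences are from RefSeq on GRCh38.p14, and the bases from the start on belong to the first exon and the 5′ untranslated region.
RPL36A: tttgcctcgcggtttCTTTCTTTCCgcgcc
RPLP0: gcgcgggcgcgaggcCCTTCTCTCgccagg
RPL41: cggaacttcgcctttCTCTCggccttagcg
RPS6: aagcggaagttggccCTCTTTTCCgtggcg
RPS24: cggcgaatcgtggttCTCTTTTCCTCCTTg
RPS10: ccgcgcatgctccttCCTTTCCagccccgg
RPL3: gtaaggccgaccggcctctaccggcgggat
RPS26: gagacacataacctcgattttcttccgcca
RPS15: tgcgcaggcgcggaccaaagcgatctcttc
RPS4X: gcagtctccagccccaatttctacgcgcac
On GRCh38.p14 the window of RPL36A lies at chrX:101390996-101391025 on the plus strand, that of RPS24 at chr10:78033848-78033877 on the plus strand and that of RPS10 at chr6:34426055-34426084 on the minus strand. Those of RPL41, RPS26 and RPS15 lie on the plus strand at chr12:56116618-56116647, chr12:56041903-56041932 and chr19:1438381-1438410. Those of RPLP0, RPS6, RPL3 and RPS4X lie on the minus strand at chr12:120201097-120201126, chr9:19380222-19380251, chr22:39319609-39319638 and chrX:72277234-72277263.

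The table of starts held 61 of the 75 members, with 76 starts in all because some genes have several. A TOP tract as defined above stood at 45 of these 76 starts (59.2%), against 4.07% of all 35116 starts in the table. It was present at 1 or more starts of 27 of the 37 matched large-subunit genes and of 18 of the 24 matched small-subunit genes. RPL3, RPS26, RPS15 and RPS4X did not show it at the annotated base, which says only that these letters are not at that position. The letters CGGAAG, on either strand and in any overlap with another motif, occurred within the 300 bases around 60.5% of the members' starts and 19.5% of all starts. The letters TATAAA, searched the same way, occurred at 6.58% against 11.5%. The members with a TOP tract had a median log2 fold change between the groups of -0.02 (45 genes), and the 16 without one had -0.0077.

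The libraries held 19091085 to 36250314 reads assigned to genes on the expected strand. Co-culture library 1 stood apart from the other 5 libraries in the share of reads that mapped to several places, at 8.42% against 6.48% to 7.03%. In co-culture libraries 2 and 3 well-covered genes had a median wrong-strand share of 0.124% and 0.211%, against 1.57% to 1.75% in the other 4. That class holds co-culture samples only, so it cannot be told apart from the group in them. When strand class is added to the model as a batch, the group effect is that of co-culture library 1 against the controls. All 8 markers fixed for HEK293 cells were present in every library. Their summed level was 2274 to 2491 CPM in co-culture and 1902 to 2015 CPM in the controls, a difference whose part in the results was not tested. Much of that difference lay in 1 of the 8, VIM, at 1258 to 1318 CPM in co-culture and 925 to 998 CPM in the controls. The epithelial markers EPCAM and CDH1 summed to 188 to 197 CPM in co-culture and 143 to 173 CPM in the controls, which was likewise not tested. The 3 fibroblast markers summed to 41.4 to 47.6 and 34.5 to 49.9 CPM, while endothelial and liver markers stayed at or below 0.586 CPM. Markers of blood cells reached at most 0.261 CPM in sum, with CD3E and HBB at 0 reads throughout. DAO, the human gene for the oxidase, had 0 reads in all 6 libraries. A transgene of different sequence would leave no reads in that row.

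Taken as a sum, the messages of ribosomal proteins did not differ between the groups beyond the spread of the libraries. The 45 large-subunit genes added up to 23481, 21145 and 18945 CPM in controls 1, 2 and 3, and to 18968, 21283 and 22823 CPM in co-culture libraries 1, 2 and 3. The highest and the lowest library were both controls, and the groups overlapped throughout. The mean was 21190 ± 2268 CPM for the controls and 21024 ± 1940 CPM for co-culture (SD, 3 libraries each), a difference of -0.782% (exact permutation test, two-sided, p = 1). The 30 small-subunit genes added up to 18653, 16745 and 14863 CPM in the controls and to 15516, 16420 and 17978 CPM in co-culture. Their means were 16753 ± 1895 and 16638 ± 1245 CPM (SD, n = 3 each), a difference of -0.688% (exact permutation test, two-sided, p = 0.9). Control 1 was again the highest and control 3 the lowest. With 3 samples against 3 this test cannot give a p below 0.10, and its result does not show that the sums were equal. The sums moved with single libraries. Without co-culture library 1 the co-culture mean was above the control mean by 907.6 CPM for the large and by 480.4 CPM for the small subunit, and without control 1 by 974.2 and 829.7 CPM. Other omissions moved it the other way. The co-culture minus control difference was -1287 and -1060 CPM without control 3, and -1037 and -764 CPM without co-culture library 3.

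**Figure D1:**
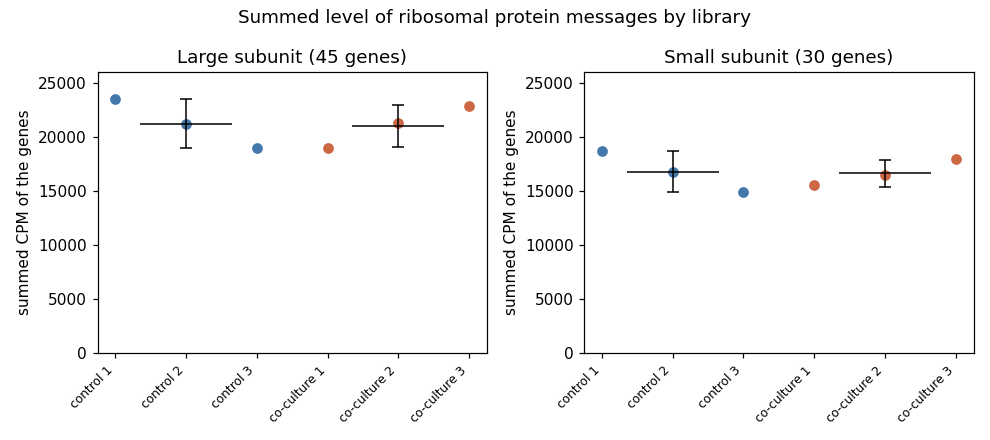
Summed CPM (y axis, from 0) of the 45 large-subunit genes (left) and the 30 small-subunit genes (right) in each library, with controls in blue and co-culture in red; black bars are the group mean ± SD of 3 libraries. Control 1 is highest and control 3 is lowest in both panels, and the groups overlap.

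The balance of the subunits, which does not depend on how libraries are scaled, likewise did not differ beyond the spread of the libraries. Reads of large-subunit genes outnumbered those of small-subunit genes by 1.26, 1.26 and 1.27 times in the controls and by 1.22, 1.30 and 1.27 times in co-culture libraries 1, 2 and 3. The means were 1.265 ± 0.00824 and 1.263 ± 0.0373 (SD, n = 3 each; exact permutation test, two-sided, p = 0.9). The spread was wider in co-culture, where library 1 held the lowest and library 2 the highest ratio of all 6.

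Gene by gene, 1 of the 75 members passed an adjusted p of 0.05 in edgeR's quasi-likelihood test with Benjamini-Hochberg adjustment over all 14582 tested genes, where 4.83% of all tested genes did. That gene was RPL36A of the large subunit, which was higher in co-culture, and 0 of the 30 small-subunit genes passed. Of all tested genes 2.66% (388) passed as higher and 2.17% (316) as lower, and when libraries were scaled by total counts alone 310 were higher and 572 lower. At an unadjusted p under 0.05 there were 2 members, RPL36A and RPS24, against 23.2% of all tested genes. The median log2 fold change was 0.0036 for the large subunit, with 24 genes higher and 21 lower, and -0.03 for the small subunit, with 10 higher and 20 lower. Over all tested genes it was -0.0022. The log2 fold change lay within 0.25 of zero for 42 of 45 large-subunit genes and 28 of 30 small-subunit genes, that is 93.3% in each case, and for 76.4% of all tested genes. The standard errors had a median of 0.10 among the members and 0.09 among all tested genes. For 37 large-subunit and 26 small-subunit genes the 95% interval from edgeR's fit lay inside a change of 1.5-fold in either direction. The intervals of the remaining 12 genes reached further, among them those of RPL36A, RPS10, RPL7, RPS28, RPL6 and RPL10.

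The CPM ranges of the groups did not overlap for 2 of the 75 members, RPL36A and RPS26, both higher in co-culture, while 29.3% of all tested genes showed no overlap and 14.3% lay wholly higher in co-culture. Most of the variation among the members ran between libraries of the same group. Control 1 had the highest CPM of the 6 libraries for 45 of the 75 members and control 3 the lowest for 38. Co-culture library 3 was the highest for 25 members and co-culture library 1 the lowest for 33. Over all tested genes these shares were 24.5% for control 1 and 11.4% for co-culture library 3 as the highest, 19.04% for control 3 as the lowest and 16.1% for co-culture library 1 as the lowest. Measured as the median log2 deviation from each gene's mean over the 6 libraries, the members stood at 0.17, 0.03 and -0.16 in controls 1, 2 and 3, and at -0.13, -0.0077 and 0.12 in co-culture libraries 1, 2 and 3. The same median over all tested genes stayed between -0.0027 and 0.0068.

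**Figure D2:**
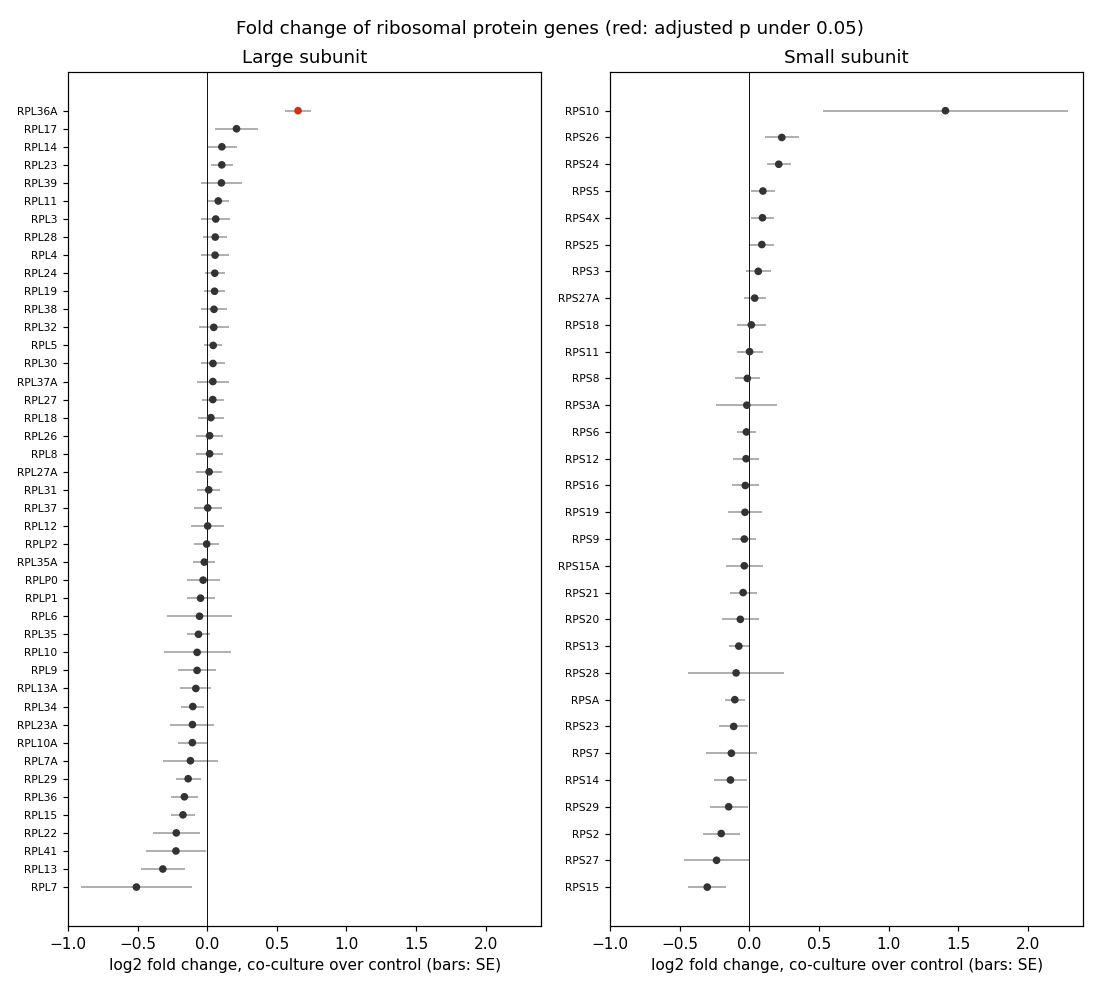
Log2 fold change of 44 large-subunit and 30 small-subunit genes in co-culture over control (x axis) with its SE as a bar, large subunit left and small subunit right, sorted by value; red marks an adjusted p under 0.05. Nearly all genes sit close to zero, RPL36A is the 1 red point, and RPS10 and RPL7 have the widest bars at their end of the range.

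RPL36A, which encodes the large-subunit protein eL42 at the site where spent tRNA leaves the ribosome, was the 1 member that rose. Its level was 11.6, 13.7 and 12.8 CPM in controls 1, 2 and 3 and 19.2, 19.5 and 21.1 CPM in co-culture libraries 1, 2 and 3. The lowest co-culture value lay above the highest control value, and the replicates of each group were close together. The log2 fold change was 0.65 (SE 0.10, 95% interval 0.44 to 0.86, adjusted p 0.00533 in edgeR). As a share of all large-subunit reads, a measure free of library scaling, it was 0.0493%, 0.0646% and 0.0676% in the controls and 0.101%, 0.0915% and 0.0923% in co-culture. The mean share was 1.57 times higher in co-culture (exact permutation test, two-sided, p = 0.10, the smallest this design can give). RPL36A was picked because it passed the edgeR test, and the same reads enter this share. The share therefore shows the same difference again and adds no separate evidence.

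The depth behind this gene was small, with 229 to 754 reads per library. The readthrough gene RPL36A-HNRNPH2 covers 77.6% of the exon bases of the principal RPL36A transcript in GENCODE release 29 on GRCh38. Reads that fall in exons of both are set aside as ambiguous in this layout, and RPL36A-HNRNPH2 itself had 0 reads in all libraries. GENCODE names 19 pseudogenes after RPL36A. Over all 3964 exon bases annotated to RPL36A, 8.40% are shared with the readthrough gene, and the principal transcript has 429 bases. The measured difference concerns the exon bases that the gene set used for counting could tell from these copies. The release of that gene set is not given, so the overlaps in GENCODE release 29 do not show which bases these were. Which RPL36A transcripts the counted reads came from was not tested. HNRNPH2, the neighbouring partner of the readthrough, had 0 to 7 reads per library. The autosomal relative RPL36AL, which encodes nearly the same protein, did not pass the test. RPL36AL stood at 99.0, 93.9 and 78.9 CPM in the controls and 78.2, 83.1 and 88.1 CPM in co-culture, which gave a log2 fold change of -0.12 (SE 0.09, adjusted p 0.429 in edgeR). There were 0.117, 0.146 and 0.162 reads of RPL36A for each read of RPL36AL in the controls, and 0.245, 0.234 and 0.239 in co-culture, so the ratio did not overlap between the groups (exact permutation test, two-sided, p = 0.10, the smallest possible). This ratio holds the same RPL36A reads, so it likewise adds no separate evidence.

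The RPL36A call held in 18 of 19 other settings, with log2 fold changes of 0.60 to 0.71 over all 19. It was lost with strand class in the model, where the log2 fold change was 0.60 (SE 0.14, adjusted p 0.178 in edgeR) and 0.199% of all tested genes passed. Among the 19 settings DESeq2 gave the lowest adjusted p, 1.81e-05, and strand class the highest.

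**Figure D3:**
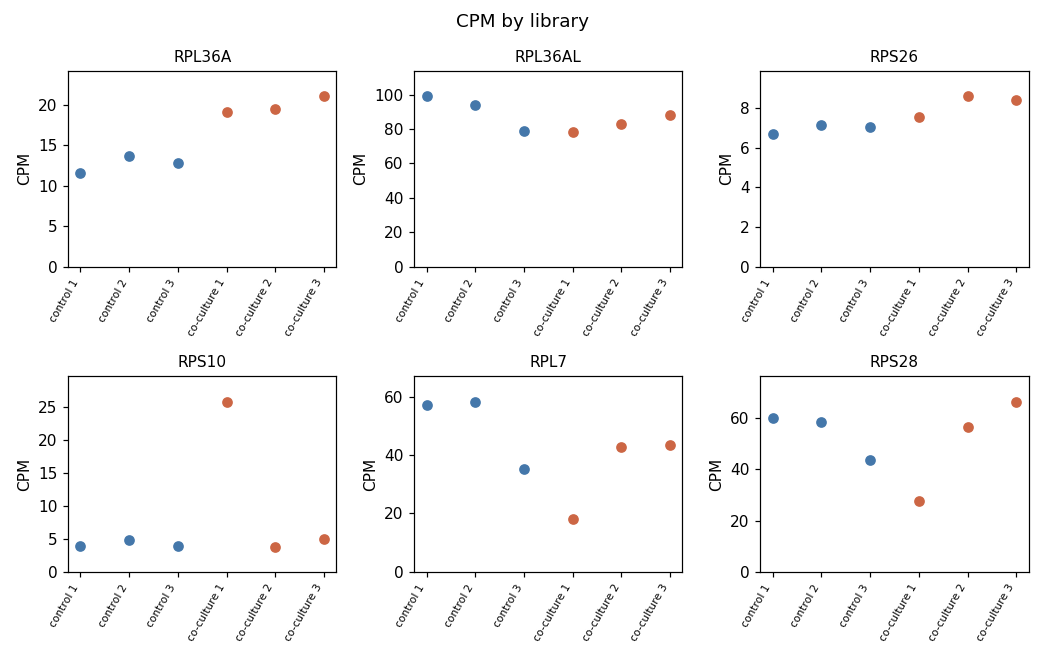
CPM (y axis, from 0) of RPL36A, RPL36AL, RPS26, RPS10, RPL7 and RPS28 in each library, 1 point per library, controls in blue and co-culture in red. RPL36A lies between 11.6 and 13.7 in the controls and between 19.2 and 21.1 in co-culture, while RPS10, RPL7 and RPS28 are set apart by co-culture library 1.

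The other large-subunit genes are given by role, and none of them passed the test. RPLP0, RPLP1 and RPLP2 form the stalk that recruits elongation factors. RPLP0 stood at 778, 638 and 587 CPM in the controls and 565, 664 and 732 CPM in co-culture, a log2 fold change of -0.03 (SE 0.12). RPLP1 had a log2 fold change of -0.05 (SE 0.10) and RPLP2 of -0.0039 (SE 0.09). In all 3 stalk genes control 1 was the highest library and the groups overlapped. RPL5 and RPL11 carry 5S ribosomal RNA into the large subunit and bind MDM2 when assembly fails. RPL5 was among the steadiest members, at 943, 932 and 867 CPM in the controls and 909, 935 and 981 CPM in co-culture, which gave a log2 fold change of 0.04 (SE 0.07, 95% interval -0.10 to 0.19). RPL11 stood at 757, 693 and 617 CPM against 729, 694 and 761 CPM, which gave a log2 fold change of 0.08 (SE 0.08, 95% interval -0.10 to 0.26).

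RPL3, which lies next to the peptidyl transferase centre, had 1049, 829 and 827 CPM in the controls and 847, 942 and 1031 CPM in co-culture (log2 fold change 0.06, SE 0.10). RPL10 joins the large subunit late in its assembly. It had 532, 457 and 416 CPM in the controls and 293, 480 and 562 CPM in co-culture, so co-culture held both the lowest and the highest library, and the log2 fold change of -0.07 had an SE of 0.24. RPL13A, known as a regulator of inflammatory messages outside the ribosome, had a log2 fold change of -0.08 (SE 0.11). RPL38, known for its part in translating Hox messages, had one of 0.05 (SE 0.09). RPL22, which also binds other RNAs, had a log2 fold change of -0.22 (SE 0.17). RPL41, whose coding length of 75 bases is the shortest of the members, had the same value with an SE of 0.22. For RPL22 and RPL41 the lowest of the 6 libraries was co-culture library 1, at 118 and 26.6 CPM.

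The lowest log2 fold changes of the large subunit were those of RPL7 and RPL13. RPL7 had 57.1, 58.3 and 35.2 CPM in the controls and 18.2, 42.8 and 43.5 CPM in co-culture, which made -0.51 on the log2 scale (SE 0.40, adjusted p 0.509 in edgeR). Pooled over the 6 libraries, reads on the opposite strand made up 16.9% of all reads over RPL7, the highest share among the members. That share differed by strand class. RPL7 had 1129, 1117 and 917 reads in the controls and 364, 901 and 1557 in co-culture. Counted without regard to strand it had 1437, 1428 and 1355 reads in the controls and 492, 907 and 1585 in co-culture. Co-culture libraries 2 and 3 therefore held few opposite-strand reads. RPL13 had 811, 621 and 527 CPM against 447, 559 and 564 CPM, a log2 fold change of -0.32 (SE 0.16, adjusted p 0.269 in edgeR), with control 1 far above the rest. In RPL7 it was co-culture library 1 that lay apart, and the other 2 co-culture libraries were inside the range of the controls. After RPL36A the highest values were 0.21 for RPL17 (SE 0.15, adjusted p 0.448 in edgeR) and 0.11 for RPL14 (SE 0.11, adjusted p 0.592 in edgeR). RPL17, like RPL36A, overlaps a readthrough gene and had only 177 to 453 reads per library.

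In the small subunit, RPS6, the substrate of S6 kinase at the end of the mTOR pathway, was one of the least variable members. It had 1162, 1091 and 1011 CPM in the controls and 1070, 1044 and 1102 CPM in co-culture, a log2 fold change of -0.02 (SE 0.07, 95% interval -0.18 to 0.13). RPS3, at the channel where the message enters, had 1159, 1003 and 956 CPM against 997, 1070 and 1191 CPM (log2 fold change 0.06, SE 0.09). RPS14 and RPS19 are needed to mature the small subunit's RNA and are known from inherited or acquired anaemias. RPS19 had 1458, 1194 and 1010 CPM in the controls and 1213, 1090 and 1277 CPM in co-culture (log2 fold change -0.03, SE 0.12), and RPS14 had a log2 fold change of -0.14 (SE 0.12). In both the controls alone spanned the range of the co-culture libraries or more, apart from the lowest RPS14 value of 624 CPM in co-culture library 1.

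RPSA, also described as a laminin receptor, had a log2 fold change of -0.10 (SE 0.07). RPS27A, made as a fusion with ubiquitin, had one of 0.04 (SE 0.08), and RPS4X, encoded on the X chromosome, one of 0.09 (SE 0.08). RPS4X was the most abundant member, at 2845, 2582 and 2370 CPM in the controls and 2732, 2714 and 2876 CPM in co-culture. The 3 lowest log2 fold changes were those of RPS15, RPS27 and RPS2, at -0.30, -0.24 and -0.20 (SE 0.14, 0.23 and 0.13, adjusted p 0.225, 0.577 and 0.393 in edgeR). RPS15, a protein of the small subunit's head, had 499, 456 and 338 CPM in the controls and 313, 351 and 382 CPM in co-culture, and control 3 kept the groups from separating. Without that library its log2 fold change was -0.45 (adjusted p 0.0112 in edgeR), where 5% of all tested genes passed.

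The 3 highest were RPS10, RPS26 and RPS24. RPS24, one of the genes mutated in Diamond-Blackfan anaemia, had 548, 521 and 441 CPM in the controls and 544, 596 and 606 CPM in co-culture. Its log2 fold change was 0.21 (SE 0.08, 95% interval 0.02 to 0.40, adjusted p 0.167 in edgeR), and 1 co-culture library lay within the range of the controls. RPS26, which touches the message upstream of the start codon, had 6.72, 7.15 and 7.06 CPM against 7.56, 8.60 and 8.41 CPM. The groups did not overlap, and the log2 fold change of 0.23 (SE 0.12) missed the threshold (adjusted p 0.285 in edgeR) at 133 or more reads per library. Without control 1 the small subunit had 2 genes past the threshold, RPS24 at 0.28 and RPS4X at 0.16 (adjusted p 0.0154 and 0.0439 in edgeR), in a fit where 20.8% of all tested genes passed.

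RPS10 had the largest fold change and the largest error of all members. It stood at 3.89, 4.90 and 3.95 CPM in the controls and at 25.8, 3.71 and 5.06 CPM in co-culture libraries 1, 2 and 3, from 515, 78 and 181 reads in co-culture. Co-culture library 1 alone was high, and the other 2 lay at the level of the controls. The log2 fold change was 1.41 (SE 0.88, adjusted p 0.413 in edgeR), and without co-culture library 1 it was 0.07 (adjusted p 0.909 in edgeR). RPS10 also overlaps a readthrough gene, RPS10-NUDT3, which shares 81.2% of the exon bases of its principal transcript in GENCODE release 29 and had 0 reads.

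Co-culture library 1 departed from its 2 replicates in many more members, mostly downward. Its CPM was below the mean of co-culture libraries 2 and 3 for 63 of the 75 members, with a median log2 ratio of -0.20, while over all tested genes the share was 49.8% and the median 0.0004. The ratio was under -0.5 for 13 members (17.3%) and for 156 of all 14582 genes (1.07%). Low ratios included -1.24 for RPL7, the lowest of all, -1.16 for RPS28 and -0.89 for RPL6, and the highest was 2.56 for RPS10. RPS28, near the exit of the message channel, had 27.4 CPM in co-culture library 1 and between 43.7 and 66.3 CPM in the other 5 libraries. RPL6 had 307 CPM there and 477 to 575 CPM elsewhere. RPS28 and RPL6 are named after their values were seen.

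The pseudogene number of a member, counted as GENCODE 29 genes that bear its name, went with this departure. The 15 members with 20 or more pseudogenes had a median log2 ratio of -0.44 and all 15 were below zero. The 23 members with 10 to 19 had -0.21, and the 37 with 9 or fewer had -0.18. The share of members with a ratio under -0.5 was 8.11% with 9 or fewer pseudogenes, 21.7% with 10 to 19 and 33.3% with 20 or more, from 3, 5 and 5 genes. Spearman's rho across the 75 genes was -0.319, given as a description because all points come from the same libraries. As median log2 deviation from the mean over the 6 libraries, co-culture library 1 had -0.087 for members with 9 or fewer pseudogenes. For those with 20 or more it had -0.305. In control 3, where the members stood lowest, these medians were -0.182 and -0.126, so the order was the reverse. The files also list 28 rows for ribosomal protein pseudogenes, of which 22 had reads. Their summed level was 30.2 CPM in co-culture library 1 and 39.8 to 42.6 CPM in the other 5. This library also had the highest share of reads with several places, and the part of that share in the result was not tested. The model with strand class sets this library alone against the controls, with the spread taken from other libraries too, so it restates the departure and adds no separate evidence. In it RPL6 passed as lower (log2 fold change -0.71, adjusted p 0.0356 in edgeR) and RPS10 as higher (2.60, adjusted p 0.00235 in edgeR), where 0.0274% of all tested genes passed as lower and 0.171% as higher. In that fit 33 large-subunit and 25 small-subunit genes had values below zero. Without the library 0.831% of all tested genes passed, and 34 large-subunit and 20 small-subunit genes had values above zero, with medians of 0.06 and 0.05.

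**Figure D4:**
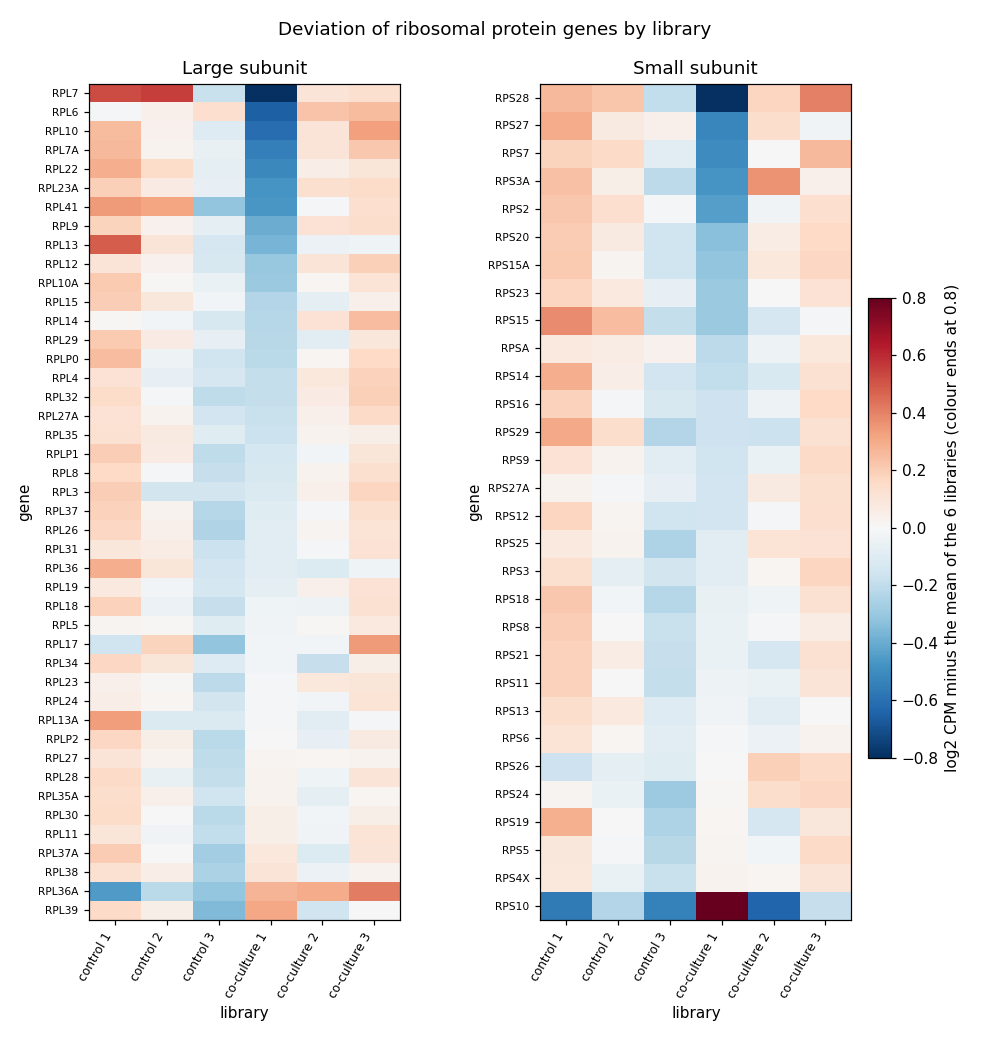
Log2 CPM of the same 74 genes minus the gene mean over the 6 libraries (colour, blue low and red high, ending at 0.8), genes in rows sorted by co-culture library 1 and libraries in columns. The column of co-culture library 1 runs from deep blue for RPL7 and RPS28 to red for RPS10, control 1 is mostly red and control 3 mostly pale blue, and RPL36A is the row with blue controls and red co-culture libraries.

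The members differed far more from each other than between the groups. Per kilobase of coding sequence in GENCODE 29, the mean level over the 6 libraries had a median of 870 CPM for the large subunit (quartiles 558 and 1295) and of 844 CPM for the small subunit (quartiles 585 and 1455). The highest were RPS4X at 3405, RPL37A at 2828 and RPS19 at 2774 CPM per coding kilobase. Only 6 members were below 100, namely RPS27 at 7.80, RPS10 at 15.9, RPL17 at 18.3, RPS26 at 22.0, RPL36A at 51.2 and RPL7 at 57.1 CPM per coding kilobase. They were singled out after their values were seen. RPS10, RPL17 and RPL36A each have a readthrough gene among the counted genes, and the other members were not searched for one. Many pseudogenes were found for low and for high members alike: GENCODE names 61 after RPL7, 30 after RPS26 and 15 after RPS27, but also 91 after RPL23A at 1020, 35 after RPL5 at 1041 and 23 after RPS4X at 3405 CPM per coding kilobase. These levels rank counted reads, from which shared reads are left out.

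None of the tested relatives that the symbol rule leaves out passed as reported. FAU, which encodes a ribosomal protein fused to a ubiquitin-like protein, had 172, 178 and 154 CPM in the controls and 167, 148 and 178 CPM in co-culture (log2 fold change -0.03, SE 0.08). RPS27L, a known p53 target, had 61.9, 62.1 and 51.1 CPM against 64.0, 55.8 and 56.4 CPM (log2 fold change 0.01, SE 0.09). For RPL22L1 the log2 fold change was -0.02 (SE 0.14) and for RPL39L -0.15 (SE 0.17). RPL26L1 was the 1 of 8 tested relatives whose groups did not overlap, while 29.3% of all tested genes showed no overlap and 15% lay wholly lower in co-culture. RPL26L1 had 27.6, 34.0 and 28.8 CPM in the controls and 21.8, 24.9 and 25.4 CPM in co-culture. Its log2 fold change of -0.32 (SE 0.10) missed the threshold (adjusted p 0.080 in edgeR), as did that of RPL7L1 at -0.20 (SE 0.09, adjusted p 0.201 in edgeR). RPL3L and RPL10L had too few reads to be tested, so 0 of the 8 tested relatives passed. Without control 1, where 20.8% of all tested genes passed, RPL26L1 and RPL7L1 did so too, at -0.38 and -0.27 (adjusted p 0.00633 and 0.0329 in edgeR).

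Lists of genes that build or serve the ribosome are given beside the share over all tested genes, of which 4.83% passed, 2.66% as higher and 2.17% as lower. Of 71 tested ribosome assembly factors, 1 (1.41%) passed, with a median log2 fold change of -0.0099 and 33 of them above zero. It was IMP3, a protein of the U3 particle that processes 18S RNA, which fell from 51.7, 51.2 and 49.1 CPM to 41.5, 42.3 and 42.7 CPM (log2 fold change -0.26, SE 0.06, adjusted p 0.0392 in edgeR). Of 20 tested genes for RNA polymerase I and its factors 0 passed edgeR's test and 6 had an unadjusted p under 0.05, where 23.2% of all tested genes did, and the median was -0.04. Of 13 listed chaperones and importers of ribosomal proteins 1 fell, AAR2 (log2 fold change -0.33, SE 0.07, adjusted p 0.0265 in edgeR), which is better known as an assembly factor of the spliceosome. The list's median was 0.0032.

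Elongation factors and other TOP messages formed a list of 20 tested genes, of which 3 (15%) rose and 0 fell, where 2.66% of all tested genes passed as higher, with a median of 0.06. VIM, the intermediate filament protein vimentin, rose from 925, 998 and 979 CPM to 1258, 1261 and 1318 CPM (log2 fold change 0.40, SE 0.06, adjusted p 0.00793 in edgeR), and it is also 1 of the 8 HEK293 markers whose sum differed between the groups. EIF3E, a subunit of an initiation factor, had a log2 fold change of 0.28 (SE 0.06, adjusted p 0.022 in edgeR), and PABPC1, which binds poly(A) tails, one of 0.24 (SE 0.06, adjusted p 0.048 in edgeR). Of 18 tested regulators of TOP messages 2 (11.1%) fell and 0 rose, where 2.17% of all tested genes passed as lower, with a median of -0.08. These are counts of 3 and 2 genes, and nothing is read from them about the lists. CNBP, which binds TOP messages, had 229, 248 and 237 CPM in the controls and 196, 195 and 206 CPM in co-culture (log2 fold change -0.26, SE 0.06, adjusted p 0.0345 in edgeR). MLST8, a subunit of both mTOR complexes, had a log2 fold change of -0.33 (SE 0.08, adjusted p 0.0384 in edgeR). The groups did not overlap for any of these 7 genes, while 29.3% of all tested genes showed no overlap. The 7 genes were picked for passing the test in the same libraries, so this adds no separate evidence. Leaving out control 2 or co-culture library 2 ended the call of all 7 in edgeR (adjusted p 0.0594 to 0.220), in fits where 65 and 74 of all tested genes passed. Leaving out co-culture library 1 ended it for all but VIM. Leaving out co-culture library 3 ended it for IMP3, CNBP, MLST8 and PABPC1, and leaving out control 3 ended it for AAR2, MLST8 and PABPC1. With the replicate block only VIM of these 7 genes kept its call. Removing the GC trend ended the calls of EIF3E and MLST8, counts without regard to strand that of MLST8, and scaling by total counts that of PABPC1. With strand class in the model 0 of them passed, where all 5 lists had 0 genes past the threshold.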

How the data were processed

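Per the labels' protocols, TriPure was used for extraction and a stranded mRNA kit for the libraries. Each deposited file holds raw read counts per gene in the layout of STAR's gene counting. Per the submitters' processing notes, STAR (version written as 2.53a) and FastQC were used with the build hg18; the annotation release is not given in the sources used here. Reads on the reverse strand were used. The 4 summary lines stayed out of library sizes and tests; in each library they took 1.22% to 1.67% (unmapped), 6.48% to 8.42% (several places), 14.8% to 17.7% (no gene) and 0.835% to 1.01% (ambiguous) of reads.

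Groups and replicate numbers came from the titles. The counts were fitted for all genes in edgeR 4.0.16 (R 4.3.3), with filterByExpr at a minimum count of 10, trimmed means of M-values and robust quasi-likelihood F tests; the SE of a log2 fold change is its size divided by the root of F. CPM carry the same scaling. Single values used exact permutation tests (scipy 1.17.1). Scripts were tested on simulated data. Alternatives used DESeq2 1.42.0 and limma 3.58.1. Transcript lengths, coding lengths, GC content, readthrough overlaps and pseudogene names came from GENCODE 29, starts from RefSeq on GRCh38.p14.

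Named genes were members past the threshold, the 3 highest and 3 lowest per subunit, members fixed by role, relatives, and up to 3 genes past the threshold per list. The members and lists were chosen with earlier results of these data known. Some genes that met these rules are not reported here by name and are not drawn, though sums and counts include them.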

Additional observations from a re-analysis of the deposited data

How the results depend on the processing

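Of all comparisons of a named gene with its value in another setting, 751 kept direction and side of the threshold, 47 lost the call, 7 gained it and 49 changed sign, and the cause was not tested. The median log2 fold change ran from -0.127 (strand class) to 0.083 (without control 1) for the large subunit. For the small subunit it ran from -0.154 to 0.060 in the same settings. In all 19 settings it moved by less than the SD of single-library medians within groups, 0.139 and 0.156. That SD is larger than the error of a difference between group means, so it is a lenient measure. Over all genes the count past the threshold was 164 with the replicate block and 29 with strand class in the model, and it ran from 65 (without control 2) to 3069 (without control 1) when 1 library was left out. Same-numbered libraries did not deviate together (correlations of -0.05, -0.11 and -0.12), so the numbers were not read as pairs; with the replicate block RPL36A and VIM kept their calls (edgeR adjusted p 0.0273 and 0.0436), and IMP3, AAR2, EIF3E, PABPC1, CNBP and MLST8 lost theirs (0.0657 to 0.133). With block and GC trend only IMP3 and EIF3E of these lost theirs (0.0626 and 0.0964). Strand class left 0 large-subunit genes past the threshold as higher and 1 as lower, and gave 1 small-subunit gene, as higher. Leaving out 1 library gave 0 to 2 small-subunit genes, 0 to 2 as higher and 0 to 1 as lower. The co-culture minus control difference in summed CPM ran from -1287 to 974.2 for the large subunit and from -1060 to 829.7 for the small subunit, and that in the subunit ratio from -0.0195 to 0.0174. The log2 fold changes that turned sign lay between -0.15 (RPL39L) and 0.11 (RPL14) as reported. With strand class they were -0.18 for RPL14, -0.14 for RPS27A, -0.090 for RPL3, -0.060 for RPS3, -0.0081 for RPL5, 0.0061 for RPL22L1 and 0.017 for RPL39L. RPLP2 turned to 0.0011 at 5 CPM or more, 0.0092 with unstranded counts, 0.00069 with limma-voom, 0.0035 with the replicate block, 0.055 with the length trend removed, 0.019 with the GC trend removed and 0.024 with block and GC trend. With the length trend removed FAU was 0.013, RPLP0 0.0089, RPS6 0.015 and RPS27L -0.014, with total counts RPS27L was -0.024, with limma-voom RPL22L1 was 0.015, and with block and GC trend RPS19 was 0.0015. Over the left-out libraries the ranges across zero were -0.091 to 0.040 for FAU, -0.27 to 0.16 for RPL10, -0.16 to 0.084 for RPL13A, -0.15 to 0.062 for RPL22L1, -0.0087 to 0.18 for RPL3, -0.057 to 0.12 for RPL38, -0.30 to 0.063 for RPL39L, -0.20 to 0.19 for RPL6, -0.12 to 0.095 for RPLP0, -0.15 to 0.043 for RPLP1, -0.11 to 0.083 for RPLP2, -0.15 to 0.12 for RPS19, -0.018 to 0.12 for RPS27A, -0.079 to 0.057 for RPS27L, -0.36 to 0.19 for RPS28, -0.0059 to 0.15 for RPS3 and -0.072 to 0.028 for RPS6. RPS27, RPS10, RPS26, RPL17 and RPL36A had the fewest reads of the members, 27 to 754 per library.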
